A study of Mus musculus with 6 samples.

Results

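The genes described here encode intermediate filament proteins of the embryonic mouse lens, and were chosen by symbol. They are the beaded filament genes Bfsp1 and Bfsp2, the vimentin gene Vim, the nestin gene Nes, the lamin genes Lmna, Lmnb1 and Lmnb2, and the keratin genes Krt8 and Krt18. All 9 were found among the 23420 genes counted, and all 9 passed the filter on low counts, which left 12257 genes for testing. RNA was sequenced from the transition zone of the lens at E14.5 of gestation, the band where epithelial cells stop dividing and start to elongate into fibre cells. The 3 control libraries came from Le-Cre embryos, in which Cre is active in the ectoderm of the future lens. The 3 libraries labelled mutant, called mutant libraries here, had the genotype Le-Cre; Etv4-/-, Etv5 fl/fl, Etv1 fl/fl. The Etv genes code for ETS factors of the Pea3 group, effectors of fibroblast growth factor signals. All embryos had a mixed strain background, the Etv4 label is of a loss in all cells whereas floxed Etv5 and Etv1 are removed only where Cre is active, and the Etv alleles of the control embryos are not given in the labels. The comparison asks which transcripts change when these factors are removed.

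Intermediate filaments are rope-like polymers of coiled-coil proteins that give cells and nuclei mechanical strength. Lens fibre cells are unusual in having a second filament system beside vimentin: filensin (Bfsp1) and phakinin (Bfsp2) assemble with each other, and with alpha-crystallin, into beaded filaments that hold the mature fibre's shape and clarity. Lamins form the meshwork under the nuclear envelope, where B-type lamins are made in nearly all cells and A-type lamins rise as tissues mature. Nestin marks progenitor and early differentiating cells, and Krt8 and Krt18 are the obligate keratin pair of simple epithelia.

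The targeted genes check the labels in part. Etv1 fell from 57.4 CPM ± 12.7 to 26.5 CPM ± 4.25 (SD, 3 libraries per group, edgeR adjusted p = 0.0319). CPM values of genes are counts scaled to the library's total, after that total was adjusted by the TMM scaling described below. Etv5 went from 197 CPM ± 42.3 to 103 CPM ± 17.98 with an edgeR adjusted p of 0.0503. Etv4 was scarce and, against the null label, had means of 2.75 ± 0.562 CPM in the control and 4.28 ± 0.610 CPM in the mutant group (SD; edgeR adjusted p = 0.427). Which exons the alleles lack is not in the labels, so counts over whole genes cannot settle the genotype, and directions below refer to the groups as labelled. Library totals lay between 13364742 and 17301168 counts. In the shallowest library 3 counts correspond to 0.224 CPM when scaled to the total without the TMM adjustment. Whether each library is a separate embryo is not in the labels, so p-values measure only the spread between these libraries, which may be technical. Counts of Xist and Ddx3y were 711 and 2 in mutant library 1, and at most 3 and at least 521 in each of the other libraries, so that library was of the other sex. Lens identity was clear from markers: fibre markers summed to between 36617 and 112926 CPM and lens epithelium markers to between 617 and 1186 CPM per library. Of the 15 fibre markers, which include Bfsp1 and Bfsp2, 13 were tested, and all 13 had negative log2 fold changes. Bfsp2, Crybb2 (-2.19, edgeR adjusted p = 0.0114) and Grifin (-1.01, edgeR adjusted p = 0.012) were called lower, 3 of the 13, against 1.08% of all tested genes. None of the 8 lens epithelium markers was called. Of the markers of other ocular tissues, 7 of 9 retinal, 5 of 8 surface ectoderm or cornea and 3 of 6 pigment genes were under 1 CPM in every library, with Six6, Krt12 and Tyr at 0. The retinal genes Sfrp2 (16.3 to 274 CPM) and Hes5 (3.29 to 17.0 CPM) and the pigment gene Mitf (1.69 to 7.70 CPM) were above that level in every library.

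Of the 9 genes, Bfsp2 fell and Lmna rose in the mutant libraries, and the other 7 did not pass the threshold (edgeR quasi-likelihood test, Benjamini-Hochberg adjusted p under 0.05). Over all tested genes 2.22% were called, 1.08% lower and 1.14% higher. The groups did not overlap for Bfsp1, Bfsp2 and Lmna, 3 of the 9, against 22.7% of all tested genes. The median log2 fold change of the 9 genes was -0.02, and that of all tested genes was 0.00. Bfsp1 had the second largest log2 fold change of the 9, without passing. Vim, the most abundant of these transcripts, differed between groups by far less than the spread between libraries.

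**Figure D1:**
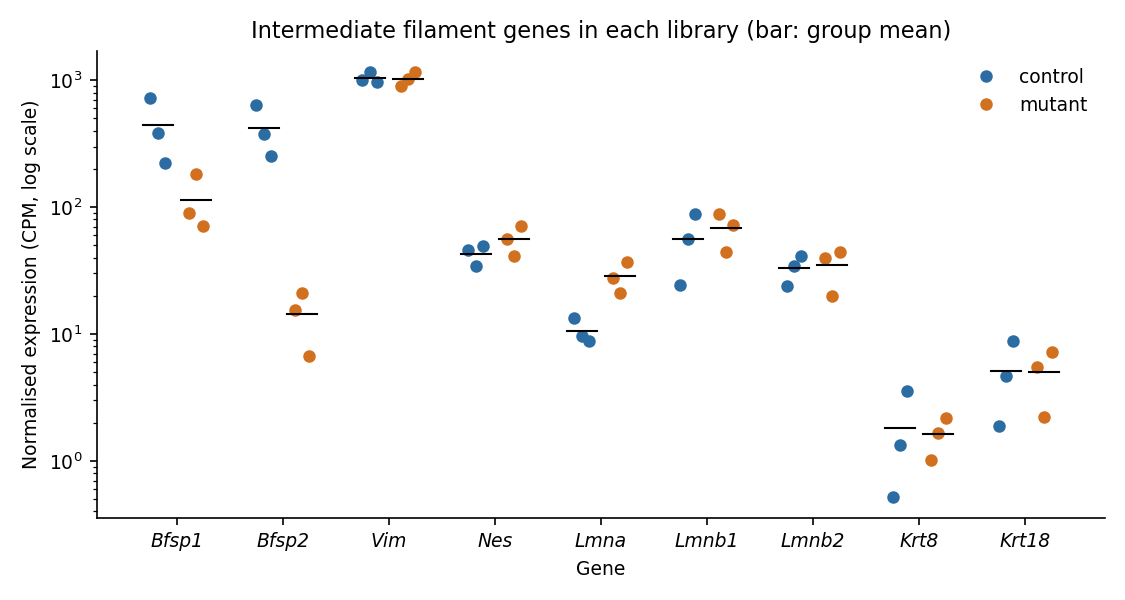
Normalised expression (CPM, log axis) of the 9 genes in each library, with libraries 1 to 3 from left to right in each group and a bar at the group mean. Bfsp2 and Lmna separate the groups in opposite directions, Bfsp1 separates them without passing the test, and the Vim points lie between 904 and 1157 CPM in all 6 libraries.

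Bfsp2, which encodes phakinin, stood at 633, 379.8 and 254 CPM in control libraries 1, 2 and 3. In mutant libraries 1, 2 and 3 it stood at 15.6, 21.1 and 6.65 CPM. The lowest control value was thus far above the highest mutant value, and no library was intermediate. The means were 422 ± 193 and 14.4 ± 7.30 CPM (SD, n = 3 per group). The fitted log2 fold change was -4.88 ± 0.52 (SE), or 29.4-fold lower, with an edgeR adjusted p of 0.00464. Its raw counts of 307, 256 and 122 in the mutant libraries lie well above the detection limit, so the transcript was reduced but still measured. The call held in each of the 6 fits that left out 1 library, with log2 fold changes between -5.24 and -4.47. An antisense gene, 5830418P13Rik, shares 201 exon bases with Bfsp2 in GENCODE M21, and reads of the pair cannot be told apart there because the kit does not mark strand. The antisense gene itself had at most 7 counts in any control library and at most 9 in any mutant library, far below Bfsp2.

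Bfsp1, which encodes the partner protein filensin, stood at 719, 386 and 222 CPM in control libraries 1, 2 and 3. The mutant libraries had 90.4, 182 and 71.2 CPM in the same order. The groups did not overlap, but mutant library 2 came close to control library 3, and the controls themselves spanned 3.24-fold. The means were 442 ± 253 and 115 ± 59.3 CPM (SD, n = 3 per group). The fitted log2 fold change was -1.95 ± 0.49 (SE), or 3.87-fold, and did not pass, with an edgeR adjusted p of 0.105 and an unadjusted p of 0.00482. It lay between -2.45 and -1.41 in the 6 fits that left out 1 library, none of which called it (edgeR adjusted p between 0.0521 and 0.305). Bfsp1 passed with DESeq2 (adjusted p = 0.0396) and with limma voom, run with library quality weights (adjusted p = 0.024). In the authors' deposited table its log2 fold change is -1.69 with an adjusted p of 0.0427, so whether Bfsp1 counts as called turns on the test and the model.

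Crystallin transcripts took up different shares of the counts within each group. The share of counts from crystallin genes (17 symbols) was 37.6%, 30.2% and 21.8% in control libraries 1, 2 and 3. Mutant libraries 1, 2 and 3 had 21.7%, 32.2% and 19.5%. Control library 1 had both the highest crystallin share and the highest Bfsp1 level, and mutant library 2 had both of these highest among the mutants. In bulk tissue, fewer fibre cells and less RNA per fibre cell cannot be told apart. With the crystallin share as a covariate in the edgeR fit, Bfsp1 had a log2 fold change of -1.33 and passed (adjusted p = 5.13e-05), and Bfsp2 one of -4.38 (adjusted p = 6.42e-06). The covariate is itself made of lens transcripts that may differ between the groups, so this fit cannot separate genotype from crystallin share. It called 798 of all tested genes, against 272 without the covariate.

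Ratios within a library do not depend on how libraries are scaled. The log2 ratio of Bfsp1 to summed crystallin counts was -9.35, -9.66 and -9.79 in control libraries 1, 2 and 3. It was -11.04, -10.93 and -11.26 in mutant libraries 1, 2 and 3. These values separate the groups with little spread inside either one. The difference was -1.48 (exact two-sided permutation p = 0.1, the smallest that 3 against 3 libraries allow).

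The ratio of the partner transcripts differed between the groups. The log2 ratio of Bfsp2 to Bfsp1 counts was -0.18, -0.02 and 0.19 in control libraries 1, 2 and 3, so the control libraries held about as many counts of one as of the other. In mutant libraries 1, 2 and 3 the ratio was -2.53, -3.11 and -3.41. All mutant values lay below all control values. The difference of -3.01 had an exact two-sided permutation p of 0.1, again the smallest possible. It lay between -3.26 and -2.82 when any 1 library was left out.

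**Figure D2:**
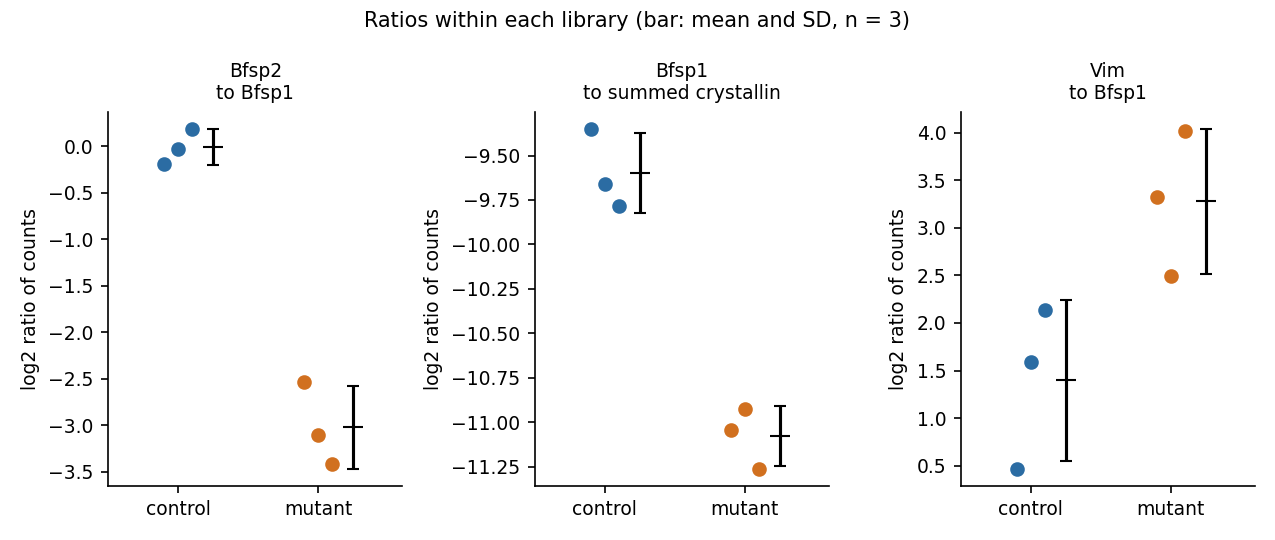
Log2 ratios of raw counts in each library for Bfsp2 to Bfsp1, Bfsp1 to summed crystallin genes and Vim to Bfsp1, with the mean and SD of each group (n = 3). The groups separate in all 3 panels, by -3.01, -1.48 and 1.88 on the log2 scale, and each panel has its own axis range.

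Bfsp2 is known to differ between inbred mouse strains, some of which carry a natural deletion within the gene. Which Bfsp2 alleles these mixed-background embryos carried was not analysed here, and the part of strain in its fall was not tested. Among the 5 tested genes on each side of Bfsp2 in gene order, 1 was called, against 2.22% of all tested genes. Of these 10 genes, 4 had negative log2 fold changes. The called gene was Tmem108, which lies next to Bfsp2 and encodes a transmembrane protein of neurons. Tmem108 fell from 22.8 ± 2.96 to 6.44 ± 1.26 CPM (SD, n = 3 per group), with no overlap. Its log2 fold change was -1.82 ± 0.23 (SE), with an edgeR adjusted p of 0.00641. Cdv3, the tested gene next to Bfsp2 on its other side, had a log2 fold change of -0.12 ± 0.16 (SE), and the others lay between -0.08 and 0.28.

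**Figure D3:**
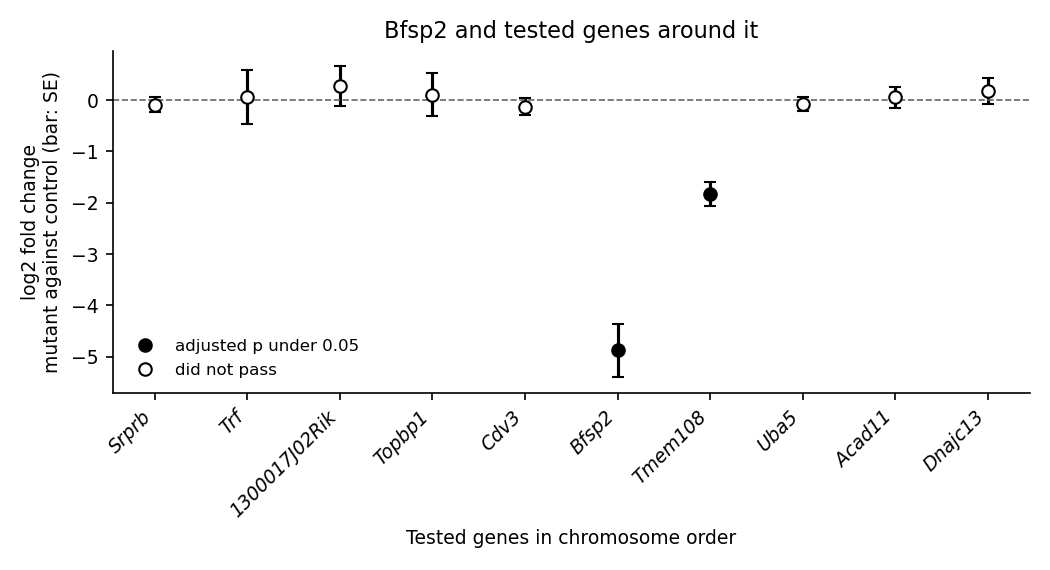
Log2 fold change (mutant against control, bar: SE) of Bfsp2 and of 9 of the 10 nearest tested genes, in chromosome order and not to distance. Bfsp2 (-4.88) and the adjacent Tmem108 (-1.82) were called, and the other genes shown lay between -0.12 and 0.28.

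The sequences upstream of the genes whose groups did not overlap are shown because Pea3 factors bind DNA through an ETS motif, searched for here as CGGAA. They come from RefSeq (GRCm38.p6, not the authors' build) and cover the 250 bases before the annotated start, 5′ to 3′ on the gene's strand. Capitals mark matches on either strand to CGGAA, to the MAF site core TGCTGA or to the AP-1 motif TGANTCA. Bfsp1 lies on the minus strand at chr2:143863174-143863423, Bfsp2 on the minus strand at chr9:103449177-103449426, and the window of the inner of the 2 Lmna starts on the minus strand at chr3:88493313-88493562.
Bfsp1: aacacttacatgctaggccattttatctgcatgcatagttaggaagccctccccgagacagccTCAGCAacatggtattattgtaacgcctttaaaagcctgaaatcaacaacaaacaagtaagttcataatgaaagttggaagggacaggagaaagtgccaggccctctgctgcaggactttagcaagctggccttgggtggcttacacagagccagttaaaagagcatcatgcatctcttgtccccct
Bfsp2: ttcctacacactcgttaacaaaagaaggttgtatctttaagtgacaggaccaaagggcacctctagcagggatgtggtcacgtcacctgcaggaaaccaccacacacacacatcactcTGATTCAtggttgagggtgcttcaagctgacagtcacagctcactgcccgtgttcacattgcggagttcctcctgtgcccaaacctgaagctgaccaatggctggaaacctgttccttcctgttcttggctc
Lmna inner start: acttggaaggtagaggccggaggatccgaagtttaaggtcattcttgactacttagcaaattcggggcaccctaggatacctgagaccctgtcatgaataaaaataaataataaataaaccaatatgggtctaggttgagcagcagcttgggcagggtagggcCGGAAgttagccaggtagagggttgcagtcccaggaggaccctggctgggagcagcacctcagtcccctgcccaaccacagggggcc
The Bfsp1 window holds 1 match to TGCTGA, on the opposite strand, and the Bfsp2 window 1 match to TGANTCA. Neither holds CGGAA. The printed windows overlap 0 annotated exons in GENCODE M21, and those of Bfsp2 and Lmna lie within introns of longer transcripts. The inner Lmna window holds 1 match to CGGAA, which lies inside the longer ETS motif CCGGAAGT, whereas the window of the outer Lmna start, not printed, holds 0 matches to any of these motifs. Windows were searched for 8 of the 9 genes, with 10 windows in all, and Lmnb1 was left out of this search. The count of matches therefore does not cover all 9 genes. CGGAA was found in 5 of the 10 windows, against 25.2% of 32851 mouse windows of the same length. CCGGAAGT is found in 2.88% of those windows, TGCTGA in 16.1% and TGANTCA in 6.75%. A match describes letters only and says nothing about binding in these cells.

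Vim encodes vimentin, the general filament protein of lens epithelial and fibre cells. It stood at 996, 1161 and 973 CPM in control libraries 1, 2 and 3 and at 904, 1029 and 1157 CPM in mutant libraries 1, 2 and 3. The groups overlapped almost fully. The means were 1043 ± 103 and 1029.6 ± 127 CPM (SD, n = 3 per group). The log2 fold change was -0.02 ± 0.16 (SE), with an edgeR adjusted p of 0.966. An interval of 2 SE on each side runs from -0.33 to 0.29, and the sign turned without control library 2 or mutant library 1 (0.06 and 0.07). Set against Bfsp1, the log2 ratio of Vim was 0.47, 1.59 and 2.13 in control and 3.32, 2.50 and 4.02 in mutant libraries. The difference of 1.88 had an exact two-sided permutation p of 0.1, the smallest possible.

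Nes, the nestin gene, stood at 45.7, 34.3 and 49.3 CPM in control libraries 1, 2 and 3 and at 56.0, 40.9 and 71.5 CPM in mutant libraries 1, 2 and 3. Mutant library 2 fell inside the control range while the other mutant libraries lay above it. The log2 fold change of 0.38 ± 0.23 (SE) did not pass (edgeR adjusted p = 0.449).

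Lmna, which encodes lamins A and C, stood at 13.5, 9.60 and 8.81 CPM in control libraries 1, 2 and 3. The mutant libraries had 27.5, 21.0 and 36.9 CPM in the same order, each above every control. The mean rose from 10.6 ± 2.48 to 28.5 ± 7.98 CPM (SD, n = 3 per group). The fitted log2 fold change was 1.43 ± 0.27 (SE), or 2.69-fold higher, with an edgeR adjusted p of 0.0344. Leaving out control library 2, control library 3, mutant library 1 or mutant library 3 ended the call, at log2 fold changes of 1.36, 1.31, 1.45 and 1.20 (edgeR adjusted p between 0.109 and 0.166). It passed without control library 1 or mutant library 2, and did not pass with a replicate block (edgeR adjusted p = 0.0917). With the crystallin share as a covariate Lmna was at 1.42 and passed (edgeR adjusted p = 0.0154). Macrophage markers, which come from cells that also make A-type lamins, summed to between 1.497 and 11.1 CPM in control and between 3.88 and 35.2 CPM in mutant libraries. The sums were 11.1, 4.01 and 1.497 CPM in control libraries 1, 2 and 3 and 32.3, 3.88 and 35.2 CPM in the mutant ones, the same order within each group as for Lmna. Of 9 listed markers 6 were tested, all with positive log2 fold changes (1.59 to 2.88), and edgeR called none. The part of macrophages in the Lmna difference was not tested. None of the 10 nearest tested genes around Lmna was called, against 2.22% of all tested genes.

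The B-type lamin genes did not pass. Lmnb1 stood at 24.5, 55.6 and 87.6 CPM in control libraries 1, 2 and 3 and at 87.6, 44.2 and 72.1 CPM in mutant libraries 1, 2 and 3. Controls alone spanned 3.57-fold, more than the whole mutant group. The log2 fold change was 0.28 ± 0.44 (SE), with an edgeR adjusted p of 0.806, and the sign turned without control library 1 (-0.07) and with the crystallin covariate (-0.11). Lmnb2 stood at 23.9, 34.3 and 40.9 CPM in control and at 40.0, 19.9 and 44.4 CPM in mutant libraries, with a log2 fold change of 0.08 ± 0.32 (SE) and an edgeR adjusted p of 0.934. The sign of Lmnb2 turned with the crystallin covariate (-0.33). It also turned without control library 1 (-0.11), mutant library 1 (-0.04) or mutant library 3 (-0.14). For both genes control library 1 and mutant library 2 were the lowest of their groups. These were also the libraries with the highest crystallin shares of their groups.

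The same libraries were low in genes of DNA replication. For 15 S phase genes, control libraries 1, 2 and 3 had a median log2 CPM of 4.57, 5.84 and 6.15. Mutant libraries 1, 2 and 3 had 7.06, 5.96 and 6.96. All 15 had positive log2 fold changes, 1 of them passed (Mcm2, a replicative helicase subunit, at 1.10 ± 0.17 (SE); edgeR adjusted p = 0.0155), and the median was 1.16. Lmnb1 and Lmnb2 thus shared the low libraries with the S phase genes, while their own differences between groups were 0.28 and 0.08. The part of cell cycle state in the lamin values was not tested.

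**Figure D4:**
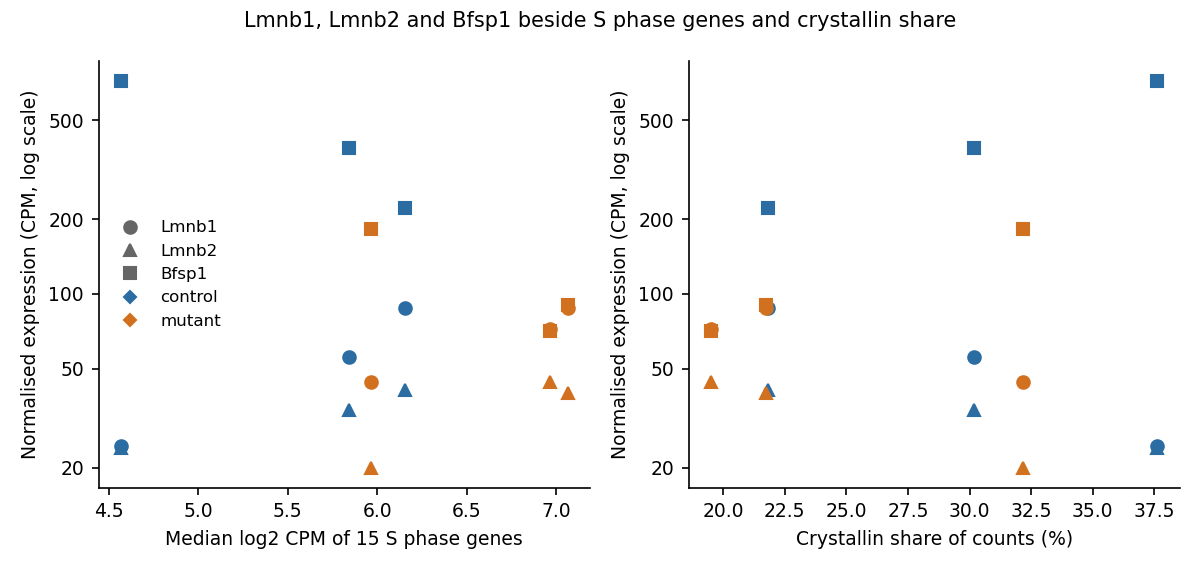
Normalised expression (CPM, log axis) of Lmnb1, Lmnb2 and Bfsp1 in each library against the median level of 15 S phase genes in log2 CPM (left) and the crystallin share of counts in percent (right). Lmnb1 and Lmnb2 are low and Bfsp1 is high in the libraries with most crystallin, within each group.

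Krt8 and Krt18 were scarce. Krt8 stood at 0.523, 1.34 and 3.55 CPM in control libraries 1, 2 and 3 and at 1.02, 1.65 and 2.18 CPM in mutant libraries 1, 2 and 3, from 7 to 64 raw counts. Krt18 stood at 1.87, 4.68 and 8.87 CPM in control and at 5.48, 2.23 and 7.25 CPM in mutant libraries. Control library 1 was the lowest control and control library 3 the highest for both genes, and every mutant value lay inside the control range. The log2 fold changes were -0.17 ± 0.71 for Krt8 and -0.04 ± 0.60 for Krt18 (SE; edgeR adjusted p = 0.931 and 0.981). Both signs turned without control library 3, to 0.78 and 0.61, that of Krt8 also without mutant library 1 (0.08) and that of Krt18 without mutant library 2 (0.30). Krt8 shares 101 exon bases with an antisense gene, both genes have processed copies in the genome, and how reads shared with these were counted is not known. With SEs of this size, a change of 2-fold in either direction was not detectable for these genes.

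**Figure D5:**
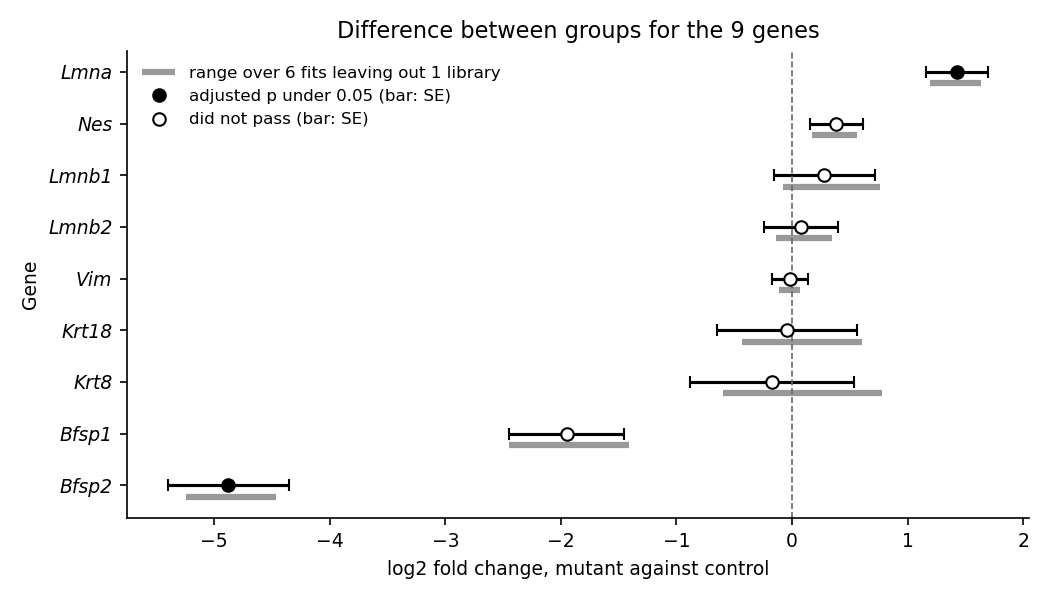
Log2 fold change (mutant against control) of the 9 genes with SE, filled where the edgeR adjusted p is under 0.05, and in grey the range over the 6 fits that leave out 1 library each. Bfsp2 (-4.88) and Lmna (1.43) were called, and the grey ranges of Vim, Lmnb1, Lmnb2, Krt8 and Krt18 cross 0.

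Per transcript length, the order of the 9 genes changed between groups. In control libraries Vim was highest at 476 CPM per kb, followed by Bfsp2 at 254 and Bfsp1 at 186 CPM per kb. The ranges of Bfsp2 and Bfsp1 overlapped, although Bfsp2 was the higher of the pair in 3 of 3 control libraries. Lmnb1 (19.7 CPM per kb), Lmnb2 (9.35), Nes (7.03), Krt18 (3.58) and Lmna (3.37) followed, each with a range that overlapped that of its neighbour in the order, and Krt8 was lowest at 0.92 CPM per kb. The steps from Vim to Bfsp2, from Bfsp1 to Lmnb1 and from Lmna to Krt8 had ranges that did not overlap. In mutant libraries Vim was again highest at 469.5 CPM per kb, followed by Bfsp1 at 48.3 and Lmnb1 at 23.9 CPM per kb, whose ranges overlapped. Bfsp2, at 8.69 CPM per kb, then lay with Lmnb2 (9.84), Nes (9.17) and Lmna (9.02), and the ranges of these neighbours overlapped. Krt18 (3.47) and Krt8 (0.825) were lowest. Lengths were those of the longest coding transcript in GENCODE M21, which may differ from the transcripts made in these cells.

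A list of 33 other intermediate filament genes was measured beside these. Of the 33, 18 were too low to test, and edgeR called none of the 15 tested. An unadjusted edgeR p under 0.05 was found for 6 of them. The share of all tested genes under that cut is not given here. This count and those for the lists below are therefore not set against it. The median log2 fold change was -0.17. DESeq2 called 1 of the 15 and limma voom 2, against 821 and 801 of all 12257 tested genes. Synm, which encodes synemin, a partner of vimentin, had means of 106 ± 44.98 and 72.8 ± 49.5 CPM in control and mutant libraries (SD, n = 3 per group). Its log2 fold change was -0.55 ± 0.48 (SE). Des, the desmin gene of muscle, had the lowest p of the list. Its means were 0.679 ± 0.544 and 3.72 ± 0.518 CPM (SD, n = 3 per group), with no overlap and an edgeR adjusted p of 0.132, and DESeq2 called it (adjusted p = 0.013). Krt10, a keratin of differentiating epidermis, had a log2 fold change of 0.76 ± 0.23, and Iffo1, a nuclear filament family gene, one of -0.56 ± 0.17 (SE; edgeR adjusted p = 0.149 and 0.158). The groups did not overlap for either, and for 4 of the 15 in all, against 22.7% of all tested genes.

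No partner of the lamins passed the edgeR test. Of 22 genes for lamin processing and nuclear envelope proteins, 21 were tested and edgeR called none, with an unadjusted p under 0.05 for 4. Their median log2 fold change was 0.04, with 12 positive and 9 negative. The groups did not overlap for 7 of the 21, against 22.7% of all tested genes. Of all 12257 genes DESeq2 called 821 and limma voom 801, and of these 21 DESeq2 called 0 and limma voom 1. Those of lowest p were Lemd2, a lamin-binding protein of the inner nuclear membrane, Fnta, a subunit of the enzyme that farnesylates lamins, and Narf, which binds prelamin A. Their log2 fold changes were -0.40 ± 0.13, -0.46 ± 0.17 and -0.42 ± 0.16 (SE; edgeR adjusted p = 0.192, 0.235 and 0.245). The fourth with an unadjusted p under 0.05 was Tor1aip1, an inner nuclear membrane protein that binds lamins, at 0.45 ± 0.19 (SE; edgeR adjusted p = 0.286).

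Genes for filament linkers, chaperones and turnover lay mostly below 0. Of 26 list entries, 24 were found and 18 tested, and edgeR, DESeq2 and limma voom called 0. The unadjusted edgeR p was under 0.05 for 2. Of the 18, 16 had negative log2 fold changes, with a median of -0.42. Ank2, an ankyrin that ties the membrane skeleton to fibre membranes, had a log2 fold change of -0.79 ± 0.28, and Cryab, the small heat shock protein alpha-B-crystallin, one of -0.86 ± 0.33 (SE; edgeR adjusted p = 0.229 and 0.25). Macf1, a linker of actin and microtubules, had one of -0.38 ± 0.18 (SE; edgeR adjusted p = 0.334). Without mutant library 2, the mutant library with the most crystallin, 4 of the list were called, against 3.78% of all genes tested in that fit: Sptbn1, Sptan1, Ank2 and Mip, at -1.48, -1.21, -1.13 and -1.68.

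The genes whose profiles over the 6 libraries were most like those of the filament genes were found by the root mean square difference of centred log2 CPM. For Bfsp1 these were Hopx, Rspo1 and Cryba2, with differences of 0.20, 0.21 and 0.21, and none of these 3 was called in edgeR. For Bfsp2 they were Wnt7a, Adam12 and Poln, with differences of 0.45, 0.58 and 0.68. Of the 12257 tested genes, Bfsp1 came 76th in likeness to Bfsp2, at 1.53, and Bfsp2 came 10479th in likeness to Bfsp1. For Vim, Sdhaf1 and Cd81 were among the 3 most alike, with differences of 0.03 and 0.04.

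Of the 10 nearest tested genes around each filament gene, none was called for Bfsp1, Vim, Nes, Lmnb1 or Krt18. The share called among all tested genes was 2.22%. Around Lmnb2 the called gene was Lingo3 (log2 fold change -3.20 ± 0.24 (SE)), and around Krt8 it was 4732456N10Rik (2.62 ± 0.33 (SE)). RefSeq gives 4732456N10Rik as a synonym of the keratin gene Krt90, which is not in the list of other filament genes. It rose from 5.47 ± 1.77 to 33.5 ± 10.9 CPM (SD, n = 3 per group), with no overlap and an edgeR adjusted p of 0.0066, and was singled out after its values were seen.

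Other cell types that make vimentin, nestin or keratins were looked for by marker lists. Mesenchyme markers summed to between 53.1 and 157 CPM in control and between 95.3 and 171 CPM in mutant libraries, with Pdgfra as the main contributor and at most 22.6 CPM from the other 10 genes. Blood vessel markers summed to between 64.4 and 76.8 CPM and between 65.7 and 101 CPM, of which at most 16.5 CPM came from genes other than Tek and Egfl7. Retina markers summed to between 49.5 and 292 CPM and between 23.6 and 93.4 CPM, with at most 17.7 CPM from genes other than Sfrp2. Surface ectoderm and cornea markers summed to between 1.27 and 3.22 CPM in control and between 3.15 and 10.03 CPM in mutant libraries. None of the tested markers in these lists was called, and their part in the Vim, Nes and keratin values was not tested. Red blood cell and pigment markers summed to between 56.1 and 184 CPM and between 3.94 and 9.12 CPM in control, and to between 76.7 and 313 CPM and between 3.11 and 6.51 CPM in mutant libraries.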

How the data were processed

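RNA of the lens transition zone was measured in 6 libraries. Per the labels' protocols, RNA was amplified with an ultra-low input SMART-seq kit, which does not mark strand or molecules, and tagmented with Nextera XT. The build mm9 and the tools DESeq, Cufflinks, TopHat and bcl2fastq 1.8.4 are listed, without roles, in the submitters' processing notes. Read counter, annotation and filters: not given in the sources used here. Raw counts by gene symbol were deposited by library and as 1 table, which differed for 0 genes. A deposited table of the authors' comparison holds a mean normalized signal, log2 fold changes, a test score and p-values, and was used only where named.

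Counts were tested with edgeR 4.0.16 in R 4.3.3 by the robust quasi-likelihood test with TMM scaling, without covariates, on genes kept by filterByExpr (minimum count 10, minimum total 15). The Benjamini-Hochberg adjustment covered 12257 genes, with a threshold of 0.05. Standard errors were derived from the F statistic. Ratios within libraries used 0.5 added counts and an exact permutation test. The procedure was tested on simulated counts, where it recovered 46.9% of 96 genes changed by 1 on the log2 scale and 86.3% of 95 changed by 2, over 12037 genes. Of its 138 calls there, 11 were false, and with no gene changed it made 0 calls. These counts were drawn gene by gene, so they hold no differences between libraries that many genes share. Gene order was taken from RefSeq (GRCm38.p6), in which 12205 tested genes were placed. The alternatives were other scalings and filters, a replicate block, DESeq2 1.42.0, limma 3.58.1 (voom with library quality weights) and each library left out. A further alternative was the crystallin share as a covariate (17 symbols starting Cry, of which Crybg3 is not a lens crystallin).

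All 9 genes are named. From each related list up to 3 genes of lowest p and every called gene are named, with the 3 most similar profiles and called neighbours; Synm, Tor1aip1, Cdv3, the marker genes and genes called only without mutant library 2 were chosen for naming with their values seen. The members and lists were chosen with earlier results of these data known. Motifs were chosen after the data were seen. A few genes that these rules would name are not reported here.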

Additional observations from a re-analysis of the deposited data

How the results depend on the processing

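Bfsp2 was called, in the same direction, in the 14 alternatives run, and Lmna in 9 of 14. Bfsp1 passed with DESeq2, limma voom and the crystallin covariate only. The cause of the differences below was not tested. Against 272 genes called, the counts were 122 with a replicate block, 798 with the crystallin covariate, 821 with DESeq2, 801 with limma voom and 91 to 479 with 1 library left out (479 without mutant library 2). Of the 9 genes, 1 was called with the replicate block and 1 to 2 with 1 library left out. Among other filament genes, 3 were called with the covariate (Des, Gfap and Krt10), 1 with DESeq2 and 2 with limma voom. Limma voom called 1 lamin partner. Among linkers and chaperones, 1 was called with the covariate (Cryab) and 0 to 4 with 1 library left out. Of the S phase genes, 0 were called with the replicate block, 4 with the covariate, 6 with DESeq2 and 0 to 1 with 1 library left out.

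Signs turned for genes that did not pass. With the replicate block the log2 fold change was 0.13 for Krt8 and 0.037 for Krt18. With limma voom it was 0.15 for Krt18, and with the covariate -0.11 for Lmnb1 and -0.33 for Lmnb2. With 1 library left out it ran from -0.11 to 0.067 for Vim, -0.074 to 0.76 for Lmnb1, -0.14 to 0.35 for Lmnb2, -0.60 to 0.78 for Krt8 and -0.43 to 0.61 for Krt18. Krt8 gave no value under the 5 CPM filter. Deviations of same-numbered libraries had correlations of -0.41, -0.26 and 0.30, and control library 1 was closest to mutant library 2 (0.59), so the numbers were not taken to pair libraries. Where an alternative left 2 libraries in a group, fewer libraries carried the test.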
